A study of Homo sapiens with 6 samples.

Results

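The adenylyl cyclase family was read in the gene counts of 6 libraries from cells labelled as a gastric cancer cell line. All 10 genes of the family, ADCY1 to ADCY10, were found by symbol among the 62700 genes counted. They were chosen by name. The choice was made with earlier results of the comparison between the groups known, among them that ADCY1 passed the test when 1 control library was left out. Values of that comparison are therefore given for the family as a description, with no p-value for any member. The 3 libraries labelled NNMT knockdown and the 3 control libraries are labelled as MKN-45, a long-established cell line derived from a human gastric adenocarcinoma. NNMT encodes nicotinamide N-methyltransferase. The labels disagree on the transfected RNA, which one field calls siRNA given with a lipid reagent and other fields call shRNA. They also disagree on the controls, described as untouched in one place and as transfected with a non-targeting RNA in others. All cells were harvested 48 h after transfection, grown in the same serum-containing medium, and each group had 3 independent biological replicates per the labels.

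Adenylyl cyclases make the second messenger cyclic AMP from ATP. The membrane-bound enzymes, ADCY1 to ADCY9, are activated by the stimulatory G protein Gs and fall into groups by their other regulators, while ADCY10 is a soluble enzyme activated by bicarbonate. Cyclic AMP acts through protein kinase A, EPAC exchange factors and cyclic-nucleotide-gated channels, and it is broken down by phosphodiesterases. In the stomach the pathway is best known for histamine-driven acid secretion by parietal cells.

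Library totals ran from 40558680 to 45405621 reads in the libraries labelled NNMT knockdown and from 41591436 to 56067484 reads in control libraries. The targeted gene, NNMT, had 2, 8 and 14 reads in replicates 1, 2 and 3 labelled NNMT knockdown, against 0, 8 and 12 reads in control replicates 1, 2 and 3. Added to the fit, NNMT gave a fold change whose 95% interval ran from 0.337 to 5.78. With at most 12 NNMT reads in a control library, no decrease in NNMT was detectable, so the libraries are called by their label throughout. Of 12 gastric marker genes, 6 lay below 1 CPM (reads scaled to the library total) in all libraries, and GKN1, GATA4 and CTSE had 0 reads. TFF1, TFF2, MUC5AC, MUC6, ANXA10 and VSIG1 did not lie below 1 CPM throughout. The 12 summed to between 58.1 and 120.7 CPM in the libraries labelled knockdown and to between 55.2 and 115.1 CPM in control. MUC6 alone measured 34.0 to 64.9 CPM in the libraries labelled knockdown and 25.7 to 84.1 CPM in control. All 10 intestinal markers lay below 1 CPM. The 5 epithelial markers summed to between 1262 and 1596 CPM in the libraries labelled knockdown and to between 1297 and 1318 CPM in control. The 8 mesenchymal markers summed to between 1217 and 1353 CPM in the libraries labelled knockdown and to between 1178 and 1260 CPM in control. PDGFRB and LUM lay below 1 CPM in all libraries, and VIM alone measured 700.6 to 990.1 CPM in the libraries labelled knockdown and 777.3 to 853.9 CPM in control. The 5 leukocyte markers were each below 1 CPM in all libraries, with CD3E at 0 reads. The 7 neural and cardiac markers summed to between 200.2 and 304 CPM in the libraries labelled knockdown and to between 253 and 299.8 CPM in control. Of these 7, 4 lay below 1 CPM in all libraries, CHGA had 0 reads, and ENO2 alone measured 195.9 to 300.5 CPM in the libraries labelled knockdown and 249.4 to 295.1 CPM in control. With 6 of 12 gastric markers and all 10 intestinal markers below 1 CPM in all libraries, the identity of the cells rests on their label. The part of these markers in the levels of the cyclases was not tested.

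The family was carried mainly by ADCY6 and ADCY3. Levels between genes were compared per length, as CPM per kilobase of merged exons (RPKM). ADCY6 averaged 9.03 ± 0.814 RPKM and ADCY3 5.69 ± 0.477 RPKM (SD, n = 6 libraries). ADCY7 and ADCY9 followed at 2.09 ± 0.415 and 2.00 ± 0.126 RPKM. ADCY1 averaged 0.700 ± 0.457 RPKM and ADCY5 0.130 ± 0.0437 RPKM. ADCY10, ADCY4, ADCY8 and ADCY2 lay at or below 0.0842 RPKM in every library. For comparison, the median over the 20250 genes kept by the filter on low counts was 2.42 RPKM. Of these genes, 23.8% lay above ADCY6 and 32.8% above ADCY3.

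**Figure D1:**
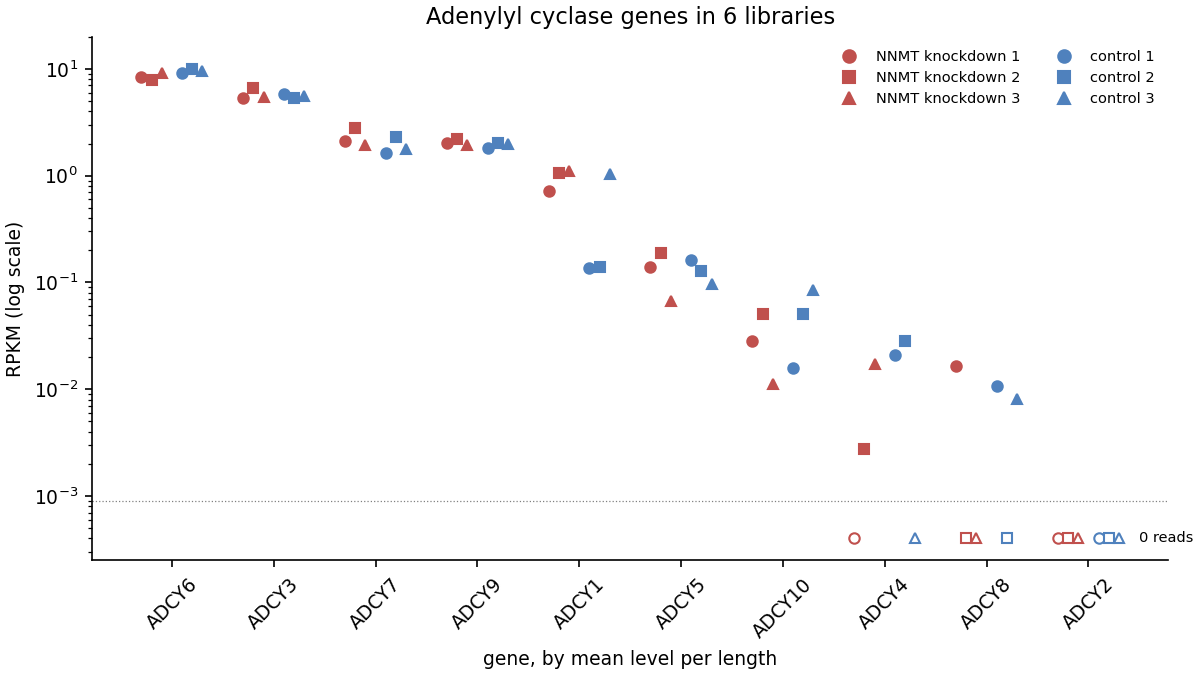
RPKM of each adenylyl cyclase gene (log axis) in the 3 libraries labelled NNMT knockdown (red) and the 3 control libraries (blue). Marker shapes give the replicate number, and open symbols below the dotted line are libraries with 0 reads; ADCY6 and ADCY3 stand highest in all 6 libraries, and ADCY1 splits the control libraries.

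Neighbours in this order could not all be told apart. The ranges of ADCY6 (7.82 to 10.1 RPKM), ADCY3 (5.31 to 6.57 RPKM) and ADCY7 (1.63 to 2.79 RPKM) did not overlap each other over the 6 libraries. ADCY7 and ADCY9 overlapped, and ADCY7 was the higher of the pair in 3 of 6 libraries. Over exon bases not shared with another gene, a length chosen after the data were seen, this overlap ended: ADCY7 then ran from 2.80 to 4.79 RPKM and lay above ADCY9, at 1.82 to 2.21 RPKM, in 6 of 6 libraries. On the same length the ranges of ADCY6 (8.54 to 11.01 RPKM) and ADCY3 (7.02 to 8.68 RPKM) overlapped. ADCY1 lay below the range of ADCY9 (1.82 to 2.21 RPKM) in every library. It lay above ADCY5 in 5 of 6 libraries and below it in control replicate 1. From ADCY5 downward the ranges of neighbouring genes overlapped, although ADCY5 was above ADCY10 in 6 of 6 libraries. The summed level of the family averaged 19.7 ± 1.03 RPKM in the libraries labelled NNMT knockdown and 19.7 ± 0.694 RPKM in control libraries (SD, n = 3 each). The difference between these means was smaller than the spread between replicates.

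**Figure D2:**
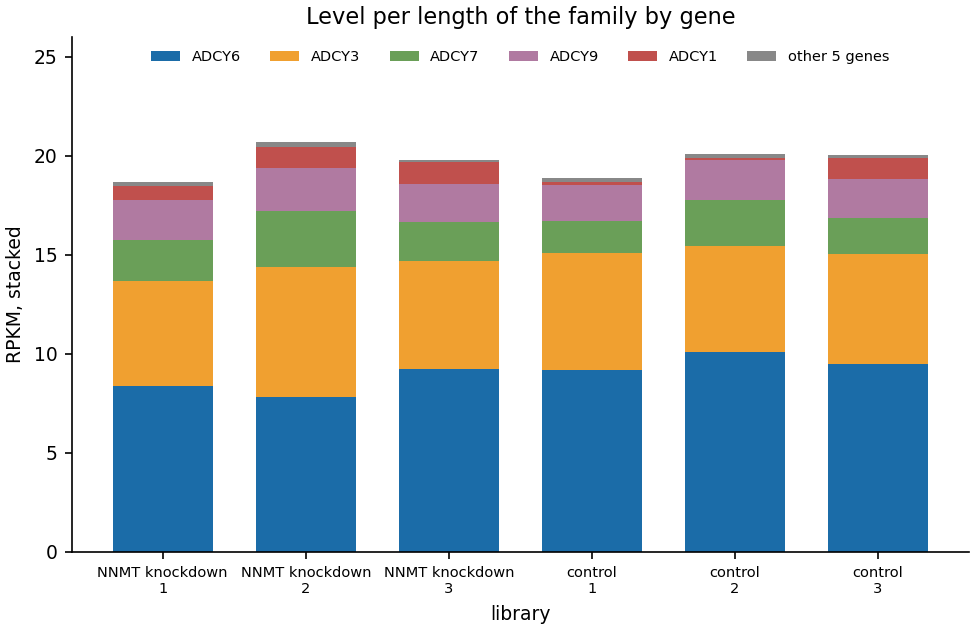
Stacked RPKM of the family in each library, with the 3 libraries labelled NNMT knockdown on the left and the 3 control libraries on the right. ADCY6 made up 37.8% to 50.2% of the total and ADCY1 0.695% to 5.58%.

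ADCY5 and ADCY6 are the members inhibited by the inhibitory G protein Gi and by calcium. ADCY6 (chromosome 12, 48766194 to 48789089, minus strand, hg38) measured 70.6, 66.2 and 78.1 CPM in replicates 1, 2 and 3 labelled NNMT knockdown, against 77.8, 85.3 and 80.3 CPM in control replicates 1, 2 and 3. The lowest control library lay just below the highest library labelled knockdown, so the groups overlapped by that pair. The means were 71.6 ± 6.02 CPM with the label knockdown and 81.2 ± 3.81 CPM with the label control (SD, n = 3 each), and the fitted log2 fold change was -0.18 (SE 0.0893, 95% interval -0.37 to 0.021). ADCY6 made up 37.8% to 46.7% of the family's summed RPKM in the libraries labelled knockdown and 47.4% to 50.2% in control libraries, a share that also moves with the other members. ADCY5 (chromosome 3, 123282296 to 123449090) had 52, 79 and 27 reads in the libraries labelled knockdown and 62, 57 and 50 reads in control libraries. Its levels of 0.621 to 1.74 CPM in the libraries labelled knockdown spanned the whole control range of 0.892 to 1.49 CPM.

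ADCY1, ADCY3 and ADCY8 are the membrane-bound members known to be stimulated by calcium. ADCY3 (chromosome 2, 24819169 to 24920237), also the cyclase of olfactory signalling and of primary cilia, measured 34.3, 42.4 and 35.3 CPM in replicates 1, 2 and 3 labelled NNMT knockdown, against 37.9, 34.5 and 35.8 CPM in control replicates 1, 2 and 3. The groups overlapped, and all 3 control libraries lay inside the range of the libraries labelled knockdown. ADCY8, a mainly neuronal member, had 3, 0 and 0 reads in the libraries labelled knockdown and 2, 0 and 2 reads in control libraries, at or under the floor of 3 reads in each. Reads that overlap several genes were not counted, and 24.4% of the exon bases of ADCY3 also belong to exons of other genes, among them CENPO on the opposite strand.

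ADCY1, best known from the brain, was the member whose libraries differed most. Its position is chromosome 7, 45574140 to 45723116 (plus strand), and none of its 13966 exon bases are shared with another annotated gene. ADCY1 had 403, 677 and 670 reads in replicates 1, 2 and 3 labelled NNMT knockdown, against 80, 94 and 813 reads in control replicates 1, 2 and 3. As levels these are 9.94, 14.9 and 15.4 CPM with the label knockdown, against 1.92, 1.95 and 14.5 CPM with the label control. Control replicate 3 lay within the range of the libraries labelled knockdown, while control replicates 1 and 2 lay far below and close to each other. The groups thus overlapped through 1 library. Means were 13.4 ± 3.03 CPM with the label knockdown and 6.12 ± 7.25 CPM with the label control (SD, n = 3 each), so the SD of the control group exceeded its mean. The fitted log2 fold change of ADCY1 was 1.13 (SE 0.928), with a 95% interval from -1.32 to 3.59. Without control replicate 3 it was 2.78, and without control replicate 1 or 2 it was 0.72 or 0.71.

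The spread of ADCY1 was set beside that of the 11518 genes with a mean of at least 5 CPM, using log2 of CPM plus 0.5. Its SD over the 6 libraries was 1.32, against a median of 0.13, and 6 genes had a larger SD. These were CEACAM5, KRT75, TFF3, MX2, XAF1 and TGFBI, named after their values were seen. Between the highest and lowest control library ADCY1 differed 6.19-fold on this scale, against a median of 1.16-fold, and 19 genes differed by more. Among those 19 are the interferon-induced genes MX2, XAF1, OAS1, OAS2, IFITM1, IFI27, IFI44L, IFIH1, BST2, HERC6, TRIM22 and NLRC5. They too were named after their values were seen, and the 19 are therefore not a set of unrelated genes. IFI44L measured 46.1, 33.2 and 74.7 CPM in replicates 1, 2 and 3 labelled NNMT knockdown, against 11.7, 31.8 and 121 CPM across control replicates 1, 2 and 3. In all 19 genes control replicate 2 stood at least 1.83-fold above control replicate 1, whereas for ADCY1 that ratio was 1.01. Control replicate 1 was the lowest of the 6 libraries in 17 of the 19, and control replicate 3 the highest in 16. The part of these library differences in the result for ADCY1 was not tested.

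The 3 genes whose log2 levels followed ADCY1 most closely over the 6 libraries were CHSY3, GCAWKR and CDC42BPB, with Pearson's r of 0.996, 0.991 and 0.987 (Spearman's rho 0.943, 0.886 and 0.771). These are descriptions over 6 libraries that share their depth and handling, and 94 of 11517 genes had r over 0.9. CHSY3, which encodes a chondroitin sulfate synthase, measured 7.15, 7.95 and 8.42 CPM in replicates 1, 2 and 3 labelled NNMT knockdown, against 4.81, 4.94 and 8.24 CPM in control replicates 1, 2 and 3. Its control replicate 3 also lay within the range of the libraries labelled knockdown, above the other control libraries by a smaller ratio than in ADCY1. The nearest named genes along chromosome 7 with at least 5 CPM differed less between control libraries. They are CCM2 and TBRG4 before ADCY1 and IGFBP3 and TNS3 after it, a choice by position made after the data were seen. CCM2 measured 46.7, 52.1 and 47.4 CPM in the libraries labelled knockdown and 44.7, 42.5 and 40.7 CPM in control libraries. Every library labelled knockdown thus lay above every control library for CCM2, as for 4.29% of all tested genes. TBRG4 measured 71.6, 84.1 and 75.7 CPM in the libraries labelled knockdown and 74.2, 78.2 and 77.7 CPM in control libraries. TNS3 measured 217, 209.9 and 243 CPM in the libraries labelled knockdown and 199, 198 and 249 CPM in control libraries, so that its control replicates 1 and 2 lay below every library labelled knockdown and control replicate 3 above, at smaller ratios than in ADCY1. IGFBP3 measured 673, 336 and 456 CPM in the libraries labelled knockdown and 349, 295 and 414 CPM in control libraries, with control replicate 3 the highest of its group. The highest control library of these 4 genes stood 1.05-fold to 1.40-fold above the lowest.

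**Figure D3:**
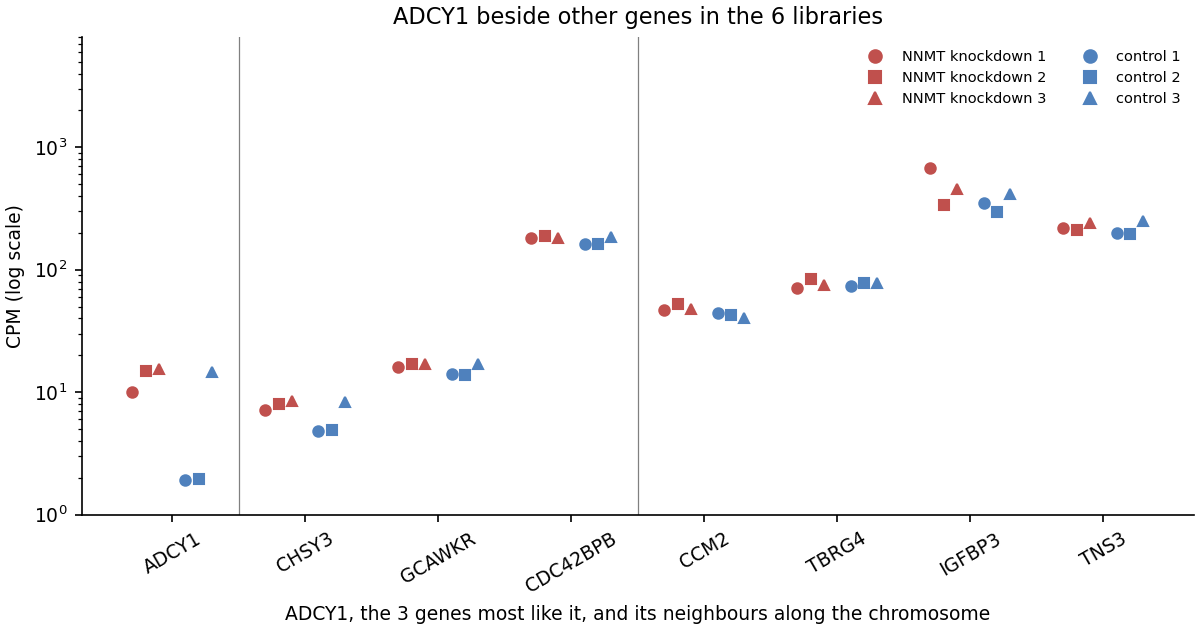
CPM (log axis) of ADCY1, of the 3 genes most like it, and of the 4 nearest named genes on chromosome 7, in libraries labelled NNMT knockdown (red) and control libraries (blue), with marker shapes for the replicate number. Control replicates 1 and 2 of ADCY1 sit at 1.92 and 1.95 CPM, apart from the other 4 libraries at 9.94 to 15.4 CPM.

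Sequence upstream of the annotated start was looked at for members at different levels. RefSeq windows (build GRCh38.p14) matched 7 of the 10 members with 10 start sites. The 250 bases before the outermost start are shown for ADCY1, the member with the widest spread, for ADCY3, a steadily expressed member, and for ADCY2, which had no reads. They are written 5′ to 3′ on the gene's strand. Capitals mark the core TGACG of the cAMP response element and the GC box GGGCGG, on either strand. The windows are chr7:45573890-45574139 (plus strand), chr2:24920238-24920487 (minus strand) and chr5:7395888-7396137 (plus strand).
ADCY1: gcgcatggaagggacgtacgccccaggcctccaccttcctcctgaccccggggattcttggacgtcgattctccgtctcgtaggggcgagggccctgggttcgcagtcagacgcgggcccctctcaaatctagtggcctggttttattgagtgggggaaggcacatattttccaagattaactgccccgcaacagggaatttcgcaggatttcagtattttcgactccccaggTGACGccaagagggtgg
ADCY3: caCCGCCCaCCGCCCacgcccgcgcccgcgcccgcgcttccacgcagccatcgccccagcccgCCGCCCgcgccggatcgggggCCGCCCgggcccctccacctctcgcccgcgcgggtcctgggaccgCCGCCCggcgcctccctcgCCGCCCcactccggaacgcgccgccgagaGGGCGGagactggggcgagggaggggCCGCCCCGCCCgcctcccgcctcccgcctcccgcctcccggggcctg
ADCY2: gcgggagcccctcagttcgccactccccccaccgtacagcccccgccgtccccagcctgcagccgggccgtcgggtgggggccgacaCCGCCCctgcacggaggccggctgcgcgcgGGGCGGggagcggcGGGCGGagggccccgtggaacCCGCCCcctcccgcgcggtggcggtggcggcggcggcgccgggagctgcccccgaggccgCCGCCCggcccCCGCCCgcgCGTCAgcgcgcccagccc

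The ADCY1 window held 1 TGACG core and 0 GC boxes, the ADCY3 window 0 cores and 9 GC boxes, and the ADCY2 window 1 core and 6 GC boxes. Over all 35116 windows of the same length, 21.2% held a TGACG core and 42.6% a GC box. Each core, GC box and full element (which contains the core) was searched on both strands. The full element TGACGTCA, found in 1.65% of windows, was in 0 of the 10 matched windows. The windows of ADCY6, ADCY8 and ADCY9 were not searched as members. CpG pairs numbered 16 in the ADCY1 window, 43 in that of ADCY3 and 40 in that of ADCY2, against a median of 11. A second annotated ADCY1 start, at position 45574368, had 36 CpG pairs and 3 GC boxes in the 250 bases before it. ADCY2, with 0 reads, and ADCY3, the member next below ADCY6 in level, thus both had a window rich in CpG pairs and GC boxes, and gene counts do not tell which start was used.

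ADCY2, ADCY4 and ADCY7 are the members known to be stimulated by G protein beta-gamma subunits. ADCY7 (chromosome 16, 50246137 to 50318135), known mainly from blood cells, measured 18.0, 23.9 and 16.6 CPM in replicates 1, 2 and 3 labelled NNMT knockdown, against 14.0, 19.8 and 15.4 CPM in control replicates 1, 2 and 3. Replicate 2 was the highest of its group in both, and the groups overlapped. Of the exon bases of ADCY7, 41.8% are shared with BRD7 on the opposite strand, and reads over both genes were not counted. Over the unshared length alone ADCY7 averaged 3.59 RPKM and ADCY3 7.52 RPKM. ADCY4 had 0, 1 and 6 reads in the libraries labelled knockdown and 7, 11 and 0 reads in control libraries. ADCY2, a mainly neuronal member, had 0 reads in all 6 libraries. A limit of 3 reads in the smallest library of each group is 0.0740 CPM with the label knockdown and 0.0721 CPM with the label control. Mates were counted singly, so these counting limits are too narrow.

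ADCY9, a widely expressed member known for its weak response to forskolin, had the smallest spread of the 7 members that passed the filter on low counts. ADCY9 (chromosome 16, 3953387 to 4116442) measured 21.3, 23.5 and 20.7 CPM in replicates 1, 2 and 3 labelled NNMT knockdown, against 19.4, 21.4 and 21.0 CPM in control replicates 1, 2 and 3. The groups overlapped, and the SD of log2 CPM over the 6 libraries was 0.088, a value exceeded by 78.3% of genes at 5 CPM or more. ADCY10, the soluble enzyme known from sperm, had 7, 14 and 3 reads in the libraries labelled knockdown and 4, 15 and 29 reads in control libraries. The libraries labelled knockdown lay at 0.0690 to 0.308 CPM and the control libraries at 0.0962 to 0.517 CPM, so the groups overlapped.

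The comparison of the groups asked which genes changed with the label NNMT knockdown. Of the 10 members, 7 passed the filter on low counts, and ADCY2, ADCY4 and ADCY8 did not. By edgeR's quasi-likelihood F-test with Benjamini-Hochberg adjustment at 0.05, 0 of the 7 passed, where 0% of all 20250 genes passed. At an unadjusted p under 0.05 there were 0 of the 7, against 4.03% of all genes. DESeq2 and limma-voom each called 0 members, where they called 8 and 0 of all 20250 genes. The groups did not overlap for 0 of the 7, against 9.17% of all genes (4.29% with every library labelled knockdown higher and 4.88% with every one lower). The fitted values of 5 members lay above 0 and those of 2, ADCY6 and ADCY10, below 0, where 50.8% of all tested genes lay above 0. The median log2 fold change of the 7 was 0.049, and that of all tested genes was 0.0033. The intervals differed widely in width. Those of ADCY3 (log2 -0.17 to 0.27) and ADCY9 (-0.14 to 0.31) were narrow, and those of ADCY1 and ADCY10 (-2.33 to 0.82) were wide.

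**Figure D4:**
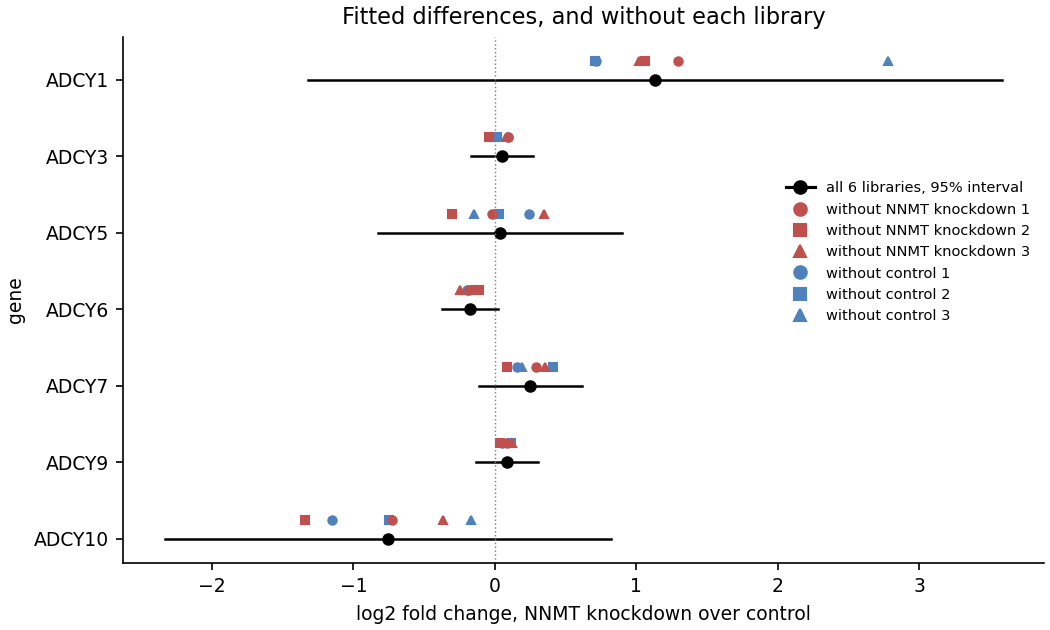
Fitted log2 fold change, libraries labelled NNMT knockdown over control, of the 7 tested members (black, with 95% intervals), and the same value without each library in turn (coloured, drawn above each bar). ADCY1 moves to 2.78 without control replicate 3, and the intervals of all 7 include 0.

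The rest of the cAMP pathway was read from 12 lists chosen with earlier results of these data known. Of their 186 genes, 185 were found and 127 tested. By edgeR's quasi-likelihood F-test 0 rose and 0 fell (lowest Benjamini-Hochberg adjusted p = 0.9995), where 0% of all 20250 genes passed. DESeq2 and limma-voom each called 0 of the 127, where they called 8 and 0 of all 20250 genes. At an unadjusted p under 0.05 there were 6 of the 127, against 4.03% of all genes. In 10 of the 127 (7.87%) the groups did not overlap, against 9.17% of all genes. Of these 10, 3 (GNG11, GNG13 and TAAR1) had every library labelled knockdown higher and 7 had every one lower. Over all genes these shares were 4.29% and 4.88%. GNG13 and TAAR1 were low, with 14 to 32 and 10 to 48 reads a library. The median log2 fold change of the 127 was -0.014.

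Upstream of the cyclases, the gene of the stimulatory alpha subunit, GNAS, was abundant at 80.9 RPKM on average, with 1853 ± 158 CPM in the libraries labelled NNMT knockdown and 1740 ± 53.7 CPM in control (SD, n = 3 each). The GNAS locus carries overlapping transcripts, so its level is uncertain. RIC8B, a chaperone of that subunit, measured 26.2 ± 2.65 CPM in the libraries labelled knockdown and 30.9 ± 2.40 CPM in control, and the groups did not overlap. Among the inhibitory subunits GNAI2 was highest, at 49.0 RPKM. Of 12 tested beta and gamma subunit genes, 0 passed and the median log2 fold change was -0.0053. GNG11, a gamma subunit gene, had the lowest p of these, with 32.2 ± 2.75 CPM in the libraries labelled knockdown and 25.2 ± 2.97 CPM in control (adjusted p = 0.9995, edgeR quasi-likelihood). Every library labelled knockdown lay above every control library for GNG11. Of 46 genes of Gs-coupled receptors, 18 were tested and 12 had 0 reads in all libraries. The adenosine receptor gene ADORA2B was the highest of them at 20.2 RPKM. ADORA2B measured 47.5 ± 2.95 CPM in the libraries labelled knockdown and 46.9 ± 4.07 CPM in control.

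Downstream, the regulatory subunit gene PRKAR1A was the most abundant of 9 tested protein kinase A genes at 35.9 RPKM. PRKAR1A measured 420 ± 23.4 CPM in the libraries labelled NNMT knockdown and 485 ± 23.1 CPM in control (SD, n = 3 each). Its groups did not overlap, with a log2 fold change of -0.21 (SE 0.0906, adjusted p = 0.9995, edgeR quasi-likelihood). The median of the 9 genes was 0.057. Of 12 tested genes of cAMP-hydrolysing phosphodiesterases, PDE8A was the highest per length at 4.65 RPKM, with 36.0 ± 0.802 CPM in the libraries labelled knockdown and 38.5 ± 0.879 CPM in control, and the median log2 fold change was -0.019. The anchoring protein gene AKAP12 reached 154 RPKM, and its log2 fold change was -0.0085.

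Among 8 tested genes of CREB factors and their coactivators, which carry the signal to transcription, 0 passed and the median log2 fold change was -0.064. The groups did not overlap for ATF1, at 21.8 ± 1.89 CPM in the libraries labelled NNMT knockdown and 26.6 ± 1.86 CPM in control (SD, n = 3 each), or for CRTC2, at 57.7 ± 4.58 CPM in the libraries labelled knockdown and 64.5 ± 2.47 CPM in control. These were 2 of the 8, against 9.17% of all genes. Of 16 tested genes known to respond to cAMP and CREB, 5 lay above 0, with a median of -0.13, where 50.8% of all tested genes lay above 0. Of the 16, 0 passed and 0 had an unadjusted p under 0.05 in edgeR's quasi-likelihood F-test. Over all 20250 genes these shares were 0% and 4.03%. The groups overlapped for each of the 16, where they did not overlap for 9.17% of all genes. The signalling regulator gene RGS2 had the lowest p of these, at 248 ± 32.8 CPM in the libraries labelled knockdown and 215 ± 19.7 CPM in control. AREG, which encodes amphiregulin, measured 28.6 ± 14.2 CPM in the libraries labelled knockdown and 41.4 ± 4.56 CPM in control. The guanylyl cyclases, the related enzymes that make cyclic GMP, had 4 tested genes of 8, NPR2 the highest per length, and 0 passed. Fewer cells with a given RNA and less RNA per cell cannot be told apart in any of these bulk libraries.

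**Figure D5:**
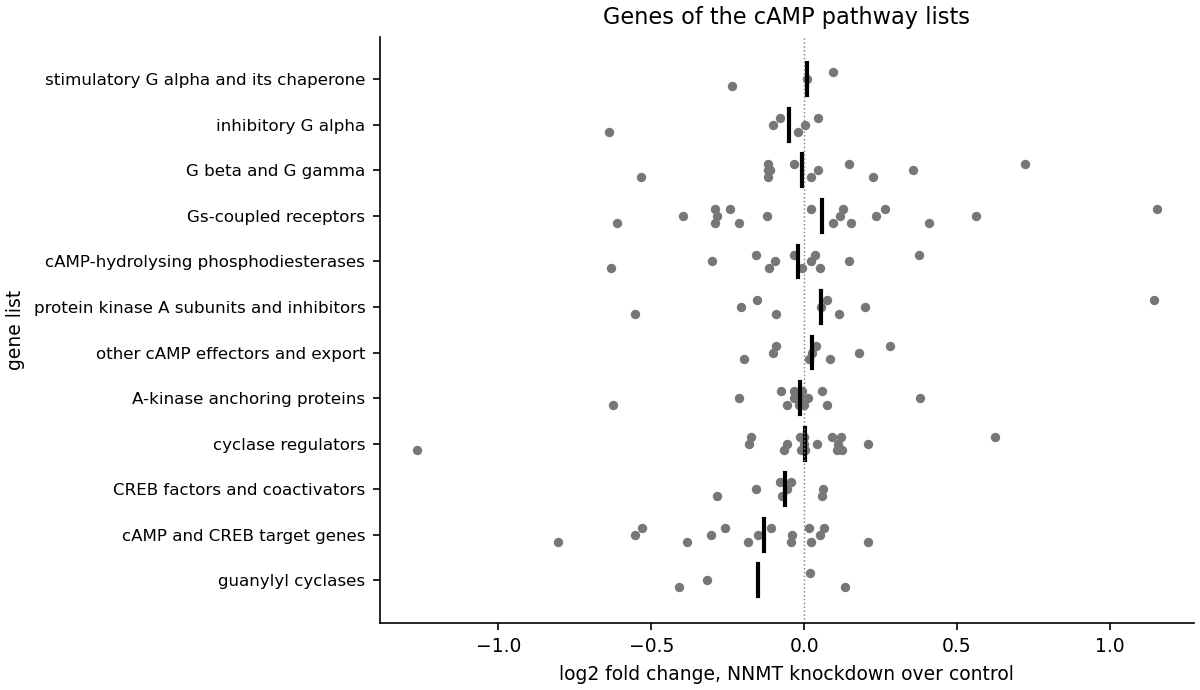
Log2 fold change, libraries labelled NNMT knockdown over control, of each tested gene (grey) in 12 lists of the cAMP pathway, with the median of each list as a black bar. Medians lie between -0.15 for guanylyl cyclases and 0.059 for Gs-coupled receptors, and no gene passed the adjusted threshold.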

How the data were processed

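The authors deposited raw read counts per gene, made with featureCounts 2.0.6 on hg38 with GENCODE 44, per the file headers. Only pairs with both mates aligned were kept, chimeric pairs, multi-mapping reads and reads that fall on more than 1 gene were left out, and no strand option was set, although the labels name a stranded protocol in one field. Mates were counted singly: 73.4% to 76.7% of counts between 2 and 10 were even, so counting limits are too narrow. The labels and headers name no aligner. Gene names were matched by identifier for all 62700 genes, some of which are named by their identifier alone, and gene lengths are the deposited merged exon lengths.

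CPM used library totals, and RPKM divided CPM by merged exon length. Genes were filtered with filterByExpr (20250 kept), scaled with TMM, and tested with edgeR 4.0.16 (R 4.3.3, quasi-likelihood, robust, group as sole term) with Benjamini-Hochberg adjustment at 0.05. SE came from the F statistic. The fit was tested on simulated data. Alternatives used DESeq2 1.42.0 and limma 3.58.1 (voom), other scalings and filters, a replicate block, halved counts and leaving out each library. For a gene with 0 reads in a library, a limit of 3 reads was used. Named genes are all members, NNMT, up to 3 genes per list by p or level, and the 3 genes most correlated with ADCY1 among those at 5 CPM or more; the 3 for ADCY6 were ZNF670, BCORL1 and LURAP1L (r = 0.995, 0.993 and 0.992). Members and lists were chosen with earlier results of these data known. No 2 libraries agreed within sampling noise (chi-square per gene at least 12.0). Some genes of the lists are not reported here by name.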

Additional observations from a re-analysis of the deposited data

How the results depend on the processing

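The count of 0 called genes in edgeR's quasi-likelihood test stayed at 0 with RLE or upper quartile scaling, a 1 CPM filter, non-robust dispersion, halved counts, limma-voom and the replicate block. It was 8 with DESeq2 and 72 without a filter on low counts, with 0 members among either, and 0 to 1 when each library was left out. The 1 gene was ADCY1, without control replicate 3 (log2 fold change 2.78); over the other alternatives its log2 fold change ran from 0.71 to 1.75. Called genes of the cAMP lists numbered 0 under every alternative run. Of 103 recomputed member values, 96 kept their direction and side of the threshold and 6 changed sign. ADCY5 was -0.016 with limma-voom, -0.040 with the replicate block, and -0.30 to 0.35 without single libraries, and ADCY3 was -0.042 to 0.096 without single libraries. The cause was not tested. ADCY10 gave no value with the 1 CPM filter or halved counts, where it was not among the genes tested.

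The replicate number did not pair the libraries throughout: deviations of same-numbered libraries correlated at 0.072, -0.23 and 0.40. By chi-square per gene, control replicate 3 and replicate 3 labelled NNMT knockdown were the closest of all pairs. Control replicate 3 lay further from control replicates 1 and 2, at 36.25 and 24.41. The same-numbered libraries of replicates 1 and 2 lay at 26.16 and 43.59. The part of the likeness at replicate 3 in the result for ADCY1 was not tested. With the replicate block 0 genes were called. Libraries did not all correlate best with their own number.

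In the order of members by level, 2 genes changed place (ADCY7 and ADCY9) without division by length, and 0 to 2 when single libraries were left out; other lengths, chosen after seeing the data, moved 0, although ADCY7 and ADCY9 then no longer overlapped over unshared bases. The summed level of the family was 161 to 170 CPM in the libraries labelled NNMT knockdown and 159 to 167 CPM in control libraries when single libraries were left out. Depth limits ADCY2, ADCY4, ADCY8 and ADCY10, with at most 29 reads a library.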
